A study of Mus musculus with 3 samples.

Results

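Isl1 peaks just upstream of a transcription start site (TSS) numbered 1029 of the 14082 distinct regions bound by Isl1 in mouse cardiac progenitor cells (CPCs), or 7.31% (95% Wilson interval 6.89 to 7.75%). They were chosen by position alone, as the peaks whose centre lay 1 to 1000 bp before the closest annotated TSS after lines repeated word for word had been dropped. The data came from chromatin immunoprecipitation with sequencing (ChIP-Seq), in which the DNA bound by a protein is recovered by means of an antibody and then read. The cells were derived from E14 Tg(Nkx2-5-EmGFP) mouse embryonic stem cells, a line in which green fluorescent protein reports the cardiac gene Nkx2-5, and were collected at day 5 of differentiation. The series held 3 libraries, namely 2 Isl1 ChIP replicates and 1 input of sheared chromatin without pull-down. There was 1 peak list for both replicates together, giving each region's position in the mouse genome build mm9, its signed distance to the TSS and the closest gene, with no peak height or read number, so that peak strength, sequencing depth and the spread between replicates could not be given. All intervals and p-values below therefore describe sampling of peaks within this one list and not biological error.

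No knockout, treatment or other time point was part of these libraries. One reporter line was used, and the sources used here do not say whether cells were sorted for the reporter before the ChIP. The list holds no expression values against which the labelled cell type could be checked.

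Isl1, which belongs to the LIM-homeodomain family, marks the second heart field, a progenitor pool that builds the right ventricle, the outflow tract and much of the atria. A promoter is the DNA around the start where RNA polymerase II is loaded. In mammals many promoters lie in CpG islands, stretches rich in G, C and the dinucleotide CpG, and transcription commonly starts from both strands there. Sequence just upstream of the TSS holds elements such as GC boxes, bound by the Sp and Klf factors, and CCAAT boxes, bound by NF-Y.

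The centres of 7 member peaks are printed here to show the kinds of DNA that the set held. All are 200 bases from mm9 around the peak centre on the strand of the assigned gene, in lower case with every CpG in capitals. The first 5 come from single-copy peaks within 300 bp of the TSS and are among the widest of the chromatin, heart and signalling lists. They are the centres at Kmt2c, a histone H3 lysine methyltransferase (chr5:25004582-25004781, minus strand), Zfpm1, a cofactor of GATA factors (chr8:124805891-124806090, plus strand), Wnt4, a Wnt ligand (chr4:136833382-136833581, plus strand), Gli3, a Hedgehog transcription factor (chr13:15555401-15555600, plus strand), and Mef2a, a muscle transcription factor (chr7:74517646-74517845, minus strand).
Kmt2c: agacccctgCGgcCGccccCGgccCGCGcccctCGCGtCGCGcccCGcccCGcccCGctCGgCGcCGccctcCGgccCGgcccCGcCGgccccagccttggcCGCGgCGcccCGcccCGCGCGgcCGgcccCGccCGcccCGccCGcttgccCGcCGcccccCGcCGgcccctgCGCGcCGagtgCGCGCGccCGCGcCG
Zfpm1: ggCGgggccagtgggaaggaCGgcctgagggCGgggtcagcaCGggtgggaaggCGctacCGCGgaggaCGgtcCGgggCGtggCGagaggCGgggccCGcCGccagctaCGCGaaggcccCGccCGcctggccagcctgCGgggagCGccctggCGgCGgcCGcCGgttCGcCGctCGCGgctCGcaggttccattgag
Wnt4: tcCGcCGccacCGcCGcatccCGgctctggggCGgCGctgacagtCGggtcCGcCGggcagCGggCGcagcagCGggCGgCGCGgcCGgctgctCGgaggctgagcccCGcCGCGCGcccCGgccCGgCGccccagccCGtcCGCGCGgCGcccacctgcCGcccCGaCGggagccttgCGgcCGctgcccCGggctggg
Gli3: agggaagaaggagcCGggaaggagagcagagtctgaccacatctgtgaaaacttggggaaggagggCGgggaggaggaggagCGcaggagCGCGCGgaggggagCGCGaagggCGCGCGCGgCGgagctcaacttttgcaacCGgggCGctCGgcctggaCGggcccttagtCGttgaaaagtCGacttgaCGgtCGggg
Mef2a: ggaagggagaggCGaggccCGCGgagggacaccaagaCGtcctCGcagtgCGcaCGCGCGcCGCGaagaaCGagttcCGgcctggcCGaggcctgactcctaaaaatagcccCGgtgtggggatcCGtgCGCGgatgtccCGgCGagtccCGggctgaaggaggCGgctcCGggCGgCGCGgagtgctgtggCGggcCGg
These 5 centres held 44, 29, 36, 21 and 28 CpGs in the order printed. The last pair was picked after its values were seen, to show centres with few CpGs. The centre at Gria1, a glutamate receptor subunit (chr11:56824917-56825116, plus strand), held 1 CpG. The centre at Dlx5, a homeobox gene (chr6:6832206-6832405, minus strand), also held 1 CpG and consisted mostly of a CT and CA repeat whose 31-base words occur at a median of 12484 places in the genome.
Gria1: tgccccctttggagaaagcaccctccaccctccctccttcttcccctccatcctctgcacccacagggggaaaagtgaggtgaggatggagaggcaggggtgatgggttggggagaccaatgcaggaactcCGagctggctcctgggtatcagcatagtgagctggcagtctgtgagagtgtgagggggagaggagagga
Dlx5: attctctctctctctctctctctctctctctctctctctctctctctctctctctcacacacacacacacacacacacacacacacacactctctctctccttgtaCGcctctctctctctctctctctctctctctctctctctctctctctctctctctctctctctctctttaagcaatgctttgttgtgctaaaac

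Isl1 peaks crowded onto the TSS from the upstream side. Of the 1029 members, 501 (48.7%) were centred within 100 bp of the TSS, 315 (30.6%) over 100 and up to 300 bp before it, 109 (10.6%) over 300 and up to 500 bp and 104 (10.1%) over 500 bp. The median centre lay 106 bp upstream, with quartiles at 246 and 43 bp. On the other side of the TSS, 4387 peaks were centred from 0 to 1000 bp downstream, and there the fullest 100-bp bin was not the first, with 974 peaks, but the next, with 1336. The distribution therefore fell from the downstream flank across the TSS with no gap at the limit that defines the set, and 8 peaks were centred exactly at 0. The members nearest that limit, all at -1, were Zbtb9 (770 bp wide), Zdhhc17 (1230 bp) and Zfp703 (1505 bp), and among the peaks at 0 were Hrk (1423 bp), Smarcd3 (1363 bp) and Tuba1b (1118 bp). At the far limit the last members were Ebf3 at -1000 (577 bp), Mir148a at -996 and Rbpj at -979, and the first peaks left out were those at Ggta1 at -1008, Kcnd2 at -1027 and Usp49 at -1028.

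**Figure D1:**
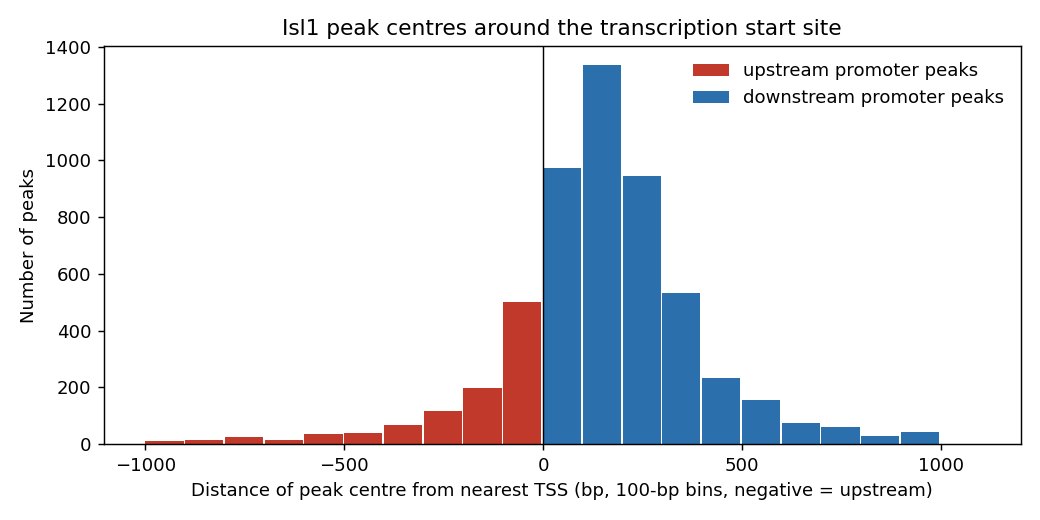
Number of Isl1 peaks (y axis) by the distance of the peak centre from the closest TSS in bp (x axis, 100-bp bins, negative upstream). The 501 upstream peaks within 100 bp of the TSS make the fullest upstream bin, and the counts fall to 11 in the bin farthest upstream.

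A centre upstream of the TSS did not place the whole peak upstream. Of the 1029 members, 930 (90.4%, interval 88.4 to 92.0%) extended across the TSS itself. Counted along the gene, 79.7% of the members covered the base 500 bp upstream of their TSS, 36.6% covered the base 500 bp inside the gene and 2.04% the base 1000 bp inside it. Crossing was reckoned from the width and the same distance that chose the members. With the narrowest member 298 bp wide, all 501 members within 100 bp had to cover the TSS. Of the 104 centred over 500 bp away, 23 did so (22.1%). Among those that stopped short were Meis1, a TALE homeobox partner of Hox and Pbx proteins, whose 637-bp peak was centred at -910, and Jag1, a Notch ligand, whose 1072-bp peak was centred at -722.

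**Figure D2:**
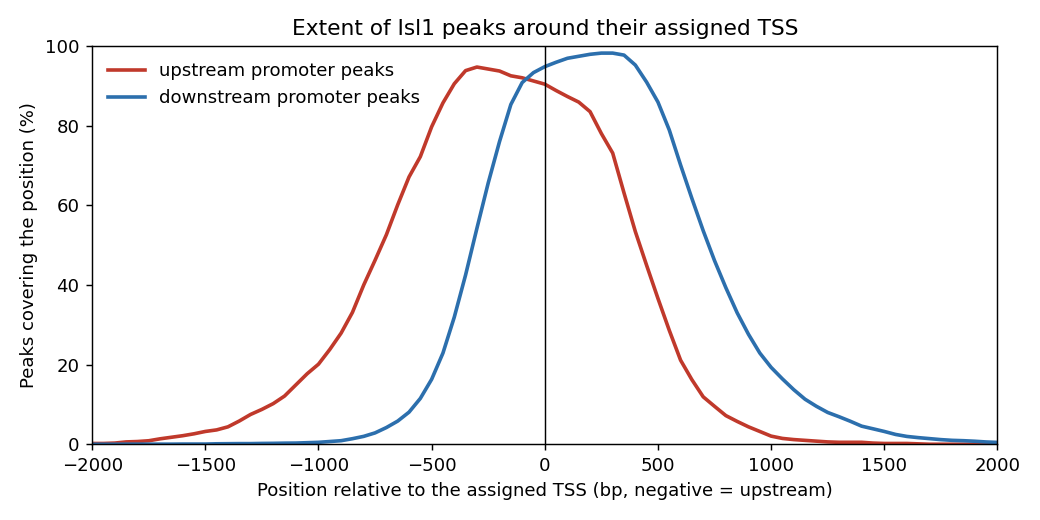
Share of peaks covering each position (y axis, percent) around the assigned TSS (x axis, bp, negative upstream), for the 1029 upstream and the 4387 downstream promoter peaks. Upstream peaks cover the TSS in 90.4% of cases, and their coverage leans to the upstream side.

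Upstream promoter peaks had the largest median width of the 3 distance classes. Their median width was 1112 bp (95% order-statistic interval 1079 to 1140, quartiles 847 and 1416, range 298 to 3604), against 1040 bp (1026 to 1052) for the 4387 downstream promoter peaks and 872 bp (863 to 882) for the 8666 peaks over 1 kb from a TSS. The median of all 14082 peaks was 947 bp, and 64.7% of the members (interval 61.8 to 67.6%) exceeded it. The share was 61.1% downstream, an odds ratio of 1.17 (two-sided Fisher's exact test, adjusted p = 0.0340 over the 8 tests of this report), and 42.5% beyond 1 kb, an odds ratio of 2.48 (adjusted p = 3.24e-41). The small difference from the downstream peaks was lost with a 2000-bp window (odds ratio 1.03, exact test, adjusted p = 0.782). The list gave no signal values, so whether a width reflects the amount of Isl1 was not tested.

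Width also varied within the set. The median was 1057 bp (1018 to 1104) within 100 bp of the TSS, 1160 bp (1118 to 1216) over 100 to 300 bp away and 1336 bp (1242 to 1493) over 300 to 500 bp away, and then 864 bp (776 to 954) over 500 bp away. The intervals of neighbouring zones did not overlap, so that the widest group sat over 300 to 500 bp out and the narrowest lay farthest away. Downstream peaks also widened, from a median of 960 bp at 0 to 99 bp to 1468 bp at 500 to 599 bp. At -600 to -501 the upstream median was 889 bp, so the members were not the wider class there. The 10 widest peaks ran from 2846 to 3604 bp. The widest was at Brd2, which encodes a bromodomain protein that reads acetylated histones, on chromosome 17 from 34255181 to 34258785 (3604 bp, centre at -138). It was followed by E030030I06Rik (3539 bp), Midn (3454 bp), Ubtf, which encodes an activator of RNA polymerase I (3377 bp), and the long non-coding RNA gene 5930403L14Rik (3147 bp). The others were Irf2bp2 (3140 bp), Hmga1, an architectural chromatin protein (3099 bp), Gnas, the stimulatory G protein alpha subunit (3014 bp), Igf1r, the receptor for insulin-like growth factor 1 (3007 bp), and Gse1 (2846 bp).

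**Figure D3:**
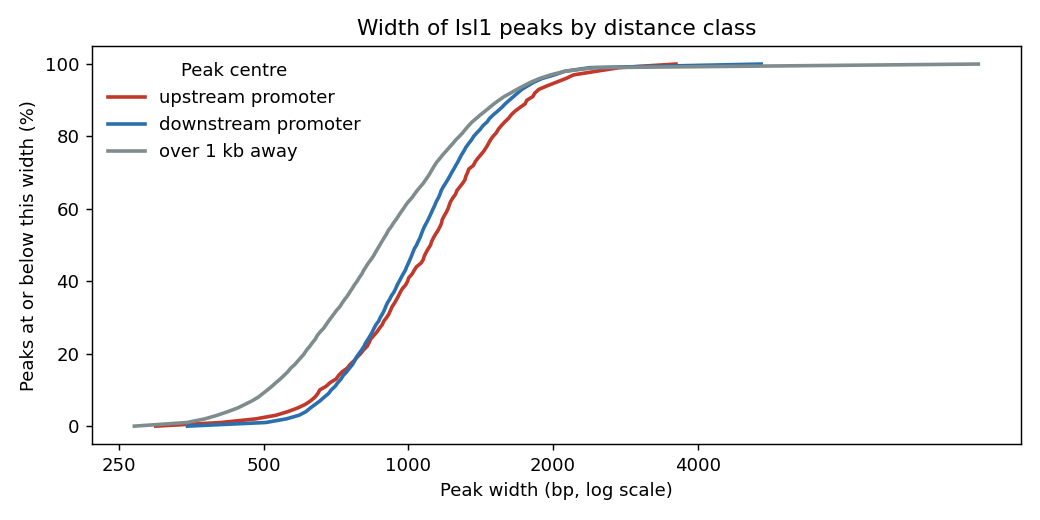
Cumulative share of peaks (y axis, percent) at or below each width (x axis, bp, log scale) in the 3 distance classes. The curve of the upstream promoter peaks, with a median of 1112 bp, lies close to that of the downstream peaks (1040 bp) and to the right of that of the peaks over 1 kb away (872 bp).

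The DNA under the members was CpG island DNA with few exceptions. In the central 200 bp, G and C made up 73.6% ± 7.46 of the bases (mean ± SD over 1029 peaks), and a centre held 23.9 CpGs on average. The downstream peaks had 73.7% ± 5.45 and 24.6 CpGs, and the peaks over 1 kb away 62.1% ± 8.15 and 9.59. Going outwards, the members fell from 73.5% G and C and 11.9 CpGs per 100 bp at the centre to 46.1% and 1.38 at 1950 bp. The usual island criteria, at least 50% G and C with an observed to expected CpG ratio above 0.6, were met by 938 members (91.2%, interval 89.3 to 92.7%). This was below the 95.6% of the downstream peaks (odds ratio 0.477, two-sided Fisher's exact test, adjusted p = 1.49e-07) and above the 38.9% of the peaks beyond 1 kb (odds ratio 16.2, adjusted p = 4.45e-245). The share fell with distance within the set, from 96.4% (483 of 501) within 100 bp through 90.8% and 84.4% to 74.0% (77 of 104) beyond 500 bp. A wide peak could lack an island centre too, such as the 1524-bp peak at Bhlhe40 with 10 CpGs.

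**Figure D4:**
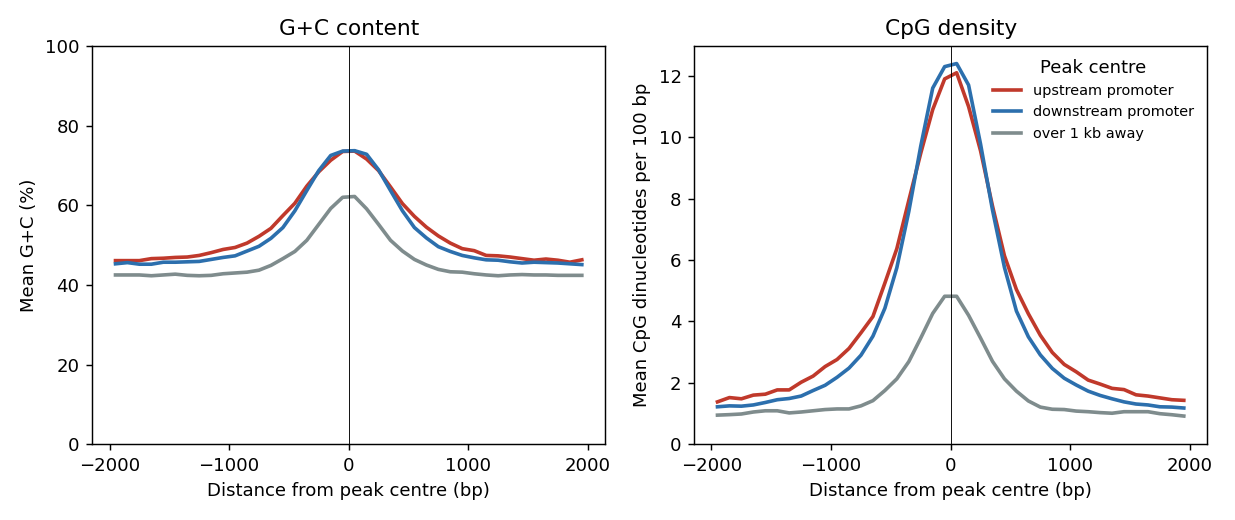
Mean G and C content (left, percent) and mean number of CpG dinucleotides per 100 bp (right) by distance from the peak centre (x axis, bp) in the 3 distance classes. At the centre the upstream promoter peaks have 11.9 to 12.1 CpGs per 100 bp, close to the downstream peaks, and the peaks over 1 kb away have 4.82.

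Most members lay in sequence found once in the genome. A peak was counted as multi-copy where the 31-base words of its central 200 bp occurred a median of at least 2 times, and 40 members were (3.89%, interval 2.87 to 5.25%). The share was 2.33% among downstream peaks (odds ratio 1.70, two-sided Fisher's exact test, adjusted p = 0.00877). It was 73.9% among peaks over 1 kb away (odds ratio 0.0143, with a p too small for double precision). The difference from the downstream peaks was lost with a 500-bp window (odds ratio 1.23, exact test, adjusted p = 0.384) and among peaks of protein-coding genes (1.56, adjusted p = 0.0553). Multi-copy sequence was more frequent farther out, making up 2.00% of those within 100 bp and 15.4% (16 of 104) of those beyond 500 bp. The highest copy numbers were those of simple repeats, at the muscle microRNA gene Mir206 (18598 copies), Prss39 (18382), and Dlx5 as printed above.

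Only 6 members lay on chromosome X (0.583%), at Rps6ka3, Gpc4, Nudt10, Dgkk, Tmem28 and the non-coding 9530027J09Rik. The downstream peaks had a like share, 18 of 4387 (0.410%, odds ratio 1.42, two-sided Fisher's exact test, adjusted p = 0.436), and the peaks over 1 kb away a higher one, 491 of the 8656 on autosomes or X (5.67%, odds ratio 0.0975, adjusted p = 4.78e-17). Among single-copy peaks the difference from the far peaks did not pass (odds ratio 0.506, exact test, adjusted p = 0.403). Per megabase, members were most frequent on chromosomes 11 (0.722), 19 (0.717) and 17 (0.640), against 0.0360 on X, and none lay on Y. The density of TSSs or of the other peaks was not set beside these values. The order of chromosomes is therefore not shown to be particular to the members.

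Letters of known promoter elements were counted on both strands of the 200-bp centres, as a description. None of the strings counted contains another. The GC-box letters GGGCGG were in 73.1% of the members (752 of 1029), in 63.9% of the downstream and in 27.3% of the far centres, and in 42.0% of all centres. The letters CCAAT were in 15.3% of the members (interval 13.2 to 17.6%), more often than in the downstream centres (6.34%, 5.65 to 7.10%) and about as often as in the far centres (15.9%) and all centres (12.9%). The E-box letters CACGTG, bound by factors such as Usf and Myc, were in 4.66%, 3.03% and 2.05% of the upstream, downstream and far centres and in 2.55% of all. The letters GCGCATGC, part of the NRF1 site, were in 1.75%, 0.866% and 0.450% (all centres 0.675%), and the CRE letters TGACGTCA were in 0.777%, 0.342% and 0.127% (all 0.241%). The ETS letters CCGGAAG were in 6.03%, 5.11% and 11.7% (all 9.21%).

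The homeodomain core TAATTA was in 4 of the 1029 member centres (0.389%), against 0.0684% downstream, 0.358% beyond 1 kb and 0.270% of all. A second homeodomain string, CTAATG, was in 1.26%, 0.433% and 0.658% (all 0.632%). The GATA letters AGATAA were in 0.875%, 0.775% and 2.27% (all 1.70%), the TEAD letters CATTCCT in 1.46%, 0.661% and 0.773% (all 0.788%), and the TATA box letters TATAAA in 1.17%, 0.479% and 1.21% (all 0.980%). These strings are short and rich in A and T, while the centres were mostly G and C. In the 300-base RefSeq promoters (assembly GRCm38.p6), TATAAA was in 4.40% of the promoters of genes with an upstream peak, 5.87% of those with a downstream peak alone, 15.0% of those with neither and 12.6% of all, and GGGCGG was in 72.0%, 72.2%, 37.4% and 46.2%. In the same order, CCAAT was in 27.5%, 32.3%, 40.5% and 38.2%, so its excess over downstream centres was not seen there. The same held, upstream against downstream alone, for CACGTG (8.97%, 9.99%), GCGCATGC (4.03%, 4.61%), TGACGTCA (1.28%, 2.65%), TAATTA (1.28%, 2.03%) and CTAATG (3.48%, 3.47%). Upstream and downstream centres lie on different sides of the TSS by the rule, and what position contributes was not tested.

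By the gene models (GENCODE vM1), 504 member midpoints were intergenic (49.0%), 270 lay in a UTR or non-coding exon (26.2%), 209 in an intron (20.3%) and 46 in a coding exon (4.47%). In the same order the shares were 1.98%, 45.8%, 23.7% and 28.5% for the downstream peaks. They were 59.9%, 2.58%, 30.2% and 7.28% for the far peaks. The side of the TSS that defines the promoter classes bears on these shares. An exon or intron could lie before the assigned TSS because the gene had another start farther upstream or because another gene overlapped. In all, 427 midpoints (41.5%) were within 1000 bp downstream of some other GENCODE start, 324 of them a start of the same gene and 103 of another gene alone. Counted the same way, 4.49% of the far peaks were downstream of a start, as were 36.0% of all peaks, where the assigned start of a downstream peak counts too. Far peaks lie over 1000 bp from their assigned start by definition, so the rule itself keeps their share low. Upstream is therefore upstream of the TSS that the annotation chose, and for these members it is also downstream of another annotated start. No minimum distance between the starts was required, so a start a few bases away at the same promoter counts too. A start on the opposite strand within 1000 bp upstream of the assigned TSS was found for 162 of the 1010 members whose strand was known (16.0%, 13.9 to 18.4%), against 10.5% of downstream and 6.18% of far peaks. It was a protein-coding gene in 111 cases, at a median gap of 222 bp among the 162. The widest peaks at such pairs were at Pdgfa, which encodes a growth factor (2640 bp, 103 bp from 6330403L08Rik), Zbtb1 (2516 bp, 706 bp from Zbtb25) and Zfp664 (2136 bp, 281 bp from Ccdc92). Since the side of a peak near a head-to-head pair depends on which start is closer, no test was made.

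Members had a neighbouring peak more often than the rest, with intervals that did not overlap. Another peak lay within 1000 bp of 84 members (8.16%, 6.64 to 10.0%), against 3.40% (2.90 to 3.97%) of the downstream and 2.77% (2.44 to 3.14%) of the far peaks. A total of 10 gene names had 2 upstream peaks each, of which Bcl11a, Adamtsl5 and Creb3l1 had both before the same start. At Anks1b, Oxr1, Deaf1, Hnrnpf, Fhdc1 and Hic1, a transcriptional repressor, the peaks lay at different starts of the gene. The last was Rnaset2b, whose peaks were both 2-copy sequence.

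The members carried 1019 gene names and marked 935 of the 21900 protein-coding genes, so that 4.27% of all protein-coding genes had an upstream promoter peak, while 4216 genes (19.3%) had a downstream one. Both kinds were present at 63 genes, or 6.74% of the 935, and 283 of the 935 (30.3%) also had a peak over 1 kb away. For 616 genes (65.9%) the upstream peak was the only one in the list. The counts for gene groups that follow are to be read against 4.27%, without a test, since the groups were chosen with earlier results of these data known. Groups with few members have wide intervals, and the share for downstream peaks is given to show where a group stood on the other side of the TSS.

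Transcription factors of the heart had an upstream peak at 8 of 49 genes (16.3%, interval 8.51 to 29.0%), and 22 (44.9%) had a downstream peak. The median width of the 8 was 1430 bp, against 1112 bp for all members. The widest was at Zfpm1, also called Fog1 (2129 bp, centre at -51), then Mef2a, whose peak was centred on the base before the TSS (1681 bp, -1). Nfatc1, a factor of heart valve formation, had a 1529-bp peak at -54, and Bhlhe40 one of 1524 bp at -640. Hey1, a Notch-responsive repressor, had a peak of 1336 bp at -313. Tbx3 and Shox2, both needed for the sinoatrial pacemaker, had peaks of 1095 bp at -364 and 987 bp at -160, and Meis1 that of 637 bp at -910. Of these 8 genes, Nfatc1 had a downstream promoter peak as well. Shox2 had 3 further peaks over 1 kb away, Meis1 2, and Hey1, Nfatc1, Tbx3 and Zfpm1 1 each, while Mef2a and Bhlhe40 had the upstream peak alone.

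Signalling pathways of the early heart were represented at ligands, receptors and nuclear effectors. In the Wnt pathway 8 of 50 genes (16.0%) had an upstream peak, with a median width of 824 bp, and 52.0% a downstream one. These were the ligand genes Wnt4 (1759 bp, -69), Wnt3 (1114 bp, -178), Wnt10a (800 bp, -52), Wnt2b (650 bp, -768) and Wnt5a (649 bp, -573), the cytoplasmic components Dvl3 (848 bp) and Gsk3b (723 bp) and the nuclear factor Tcf7 (1197 bp). In the BMP and TGF-beta pathway 35.7% of the genes had a downstream peak and 7 of 42 (16.7%) an upstream one, with a median width of 1566 bp. Among them were the receptors Bmpr1a (1622 bp, -63), Bmpr2 (1645 bp, -763), Acvr1b and Acvr2a (1174 bp each, at -6 and -62). The others were the BMP antagonist Chrd (1853 bp, -357), the signal transducer Smad5 (1155 bp, -245) and the inhibitor Smad7 (1566 bp, -204).

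In the Notch pathway the peaks were at 5 of 28 genes (17.9%), the ligands Dll1 (1075 bp) and Jag1 (1072 bp), the receptor Notch3 (674 bp), the coactivator Maml3 (690 bp) and the DNA-binding effector Rbpj (852 bp). Dll1, Notch3 and Rbpj had a downstream peak too, and 50.0% of the 28 genes had one. Without peaks that had another within 1000 bp the upstream Notch share was 7.14%. In the Hedgehog pathway upstream peaks were at 3 of 17 genes (17.6%, downstream 41.2%), among them the receptor Ptch1 (1374 bp, -19) and the factor Gli3 (1707 bp, -56). In the FGF pathway they were at 2 of 31 (6.45%, downstream 38.7%), Fgf18 (1505 bp) and Fgfr3 (1372 bp).

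Enzymes that modify histones or DNA had the highest share of the lists, 13 of 59 genes (22.0%, 13.4 to 34.1%), with a median width of 1619 bp, and 49.2% had a downstream peak. All 13 peaks covered their TSS and 12 met the island criteria. The methyltransferases of histone H3 lysine 4 Kmt2c (2351 bp, -80) and Kmt2a (1822 bp, -181) were there, as were both histone acetyltransferases of the CBP and p300 pair, Ep300 (1943 bp, -422) and Crebbp (1637 bp, -352). Jarid2 (1744 bp), Ring1 (1173 bp) and Cbx8 (1295 bp) belong to Polycomb complexes. Tet2 (1175 bp) and Tet3 (1619 bp) oxidise methylcytosine and Dnmt3a (783 bp) writes it. The rest were Carm1 (1650 bp), Ehmt2 (1510 bp) and Hdac4 (1600 bp).

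Subunits of ATP-dependent remodelling complexes were fewer, 3 of 41 (7.32%), namely Arid2 (2328 bp, -13), Smarcc2 (1465 bp, -34) and Bptf (1218 bp, -91), although 51.2% of these genes had a downstream peak. Sarcomere and calcium handling genes had 2 of 36 (5.56%, downstream 13.9%), the calcium channel Cacna1c (958 bp) and Nebl (786 bp). Cell cycle genes had 2 of 44 (4.55%, downstream 22.7%), E2f3 (2063 bp) and Ccne2 (1535 bp). Motor neuron and neural progenitor genes, where Isl1 also acts, had 1 of 32 (3.12%), Lhx4, against 46.9% with a downstream peak. Blood and endothelial genes had 3 of 30 (10.0%, downstream also 10.0%), Flt1 (1547 bp), Ets1 (1055 bp) and Runx1 (966 bp). Hepatocyte genes had 1 of 30 (3.33%, downstream also 3.33%), Foxa2 (677 bp).

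Gene families taken by the stem of their symbol ranged as widely. Of the 23 families with at least 20 genes, forkhead factors had the highest share, 9 of 46 (19.6%, 10.7 to 33.2%, downstream 41.3%). Foxf1, a regulator of lateral mesoderm, had the widest peak (2697 bp, -279) and Foxp4 the narrowest (505 bp, -551), and the others were at Foxa2, Foxj2, Foxm1, Foxn4, Foxo3, Foxo6 and Foxq1. Potassium channel genes followed with 14 of 94 (14.9%, 9.08 to 23.5%, downstream 23.4%) and a median width of 1376 bp. The narrowest peak was at Kcnc2 (437 bp), and others were at Kcnma1 (1889 bp), the large-conductance calcium-activated channel, and Kcnn2 (1795 bp), a small-conductance one. Next came ubiquitin-conjugating enzymes with 4 of 37 (10.8%, downstream 51.4%). RNA-binding and splicing factors had 7 of 78 (8.97%, downstream 29.5%), among them the cardiac splicing regulator Rbm20 (1563 bp). Klf and Sp factors had 2 of 29 (6.90%, downstream 20.7%), Klf3 (1953 bp) and Sp4 (1666 bp).

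Middle and low shares were as follows. Mitogen-activated kinase cascade genes had 3 of 49 (6.12%), Hox clusters 2 of 39 (5.13%), Hoxd8 and Hoxd3, collagens 2 of 44 (4.55%), Rab GTPases 3 of 69 (4.35%), numbered Zfp genes 16 of 397 (4.03%), solute carriers 15 of 375 (4.00%) and orphan G protein-coupled receptors 2 of 75 (2.67%). Housekeeping families had upstream shares under the background with intervals that include it. Respiratory chain and ATP synthase genes had 1 of 92 (1.09%, 0.192 to 5.90%, Cox4i1, downstream 6.52%). Translation initiation factors had 1 of 56 (1.79%, 0.316 to 9.45%, Eif1b, downstream 30.4%). The stem of the ribosomal proteins had 1 of 97 (1.03%, downstream 17.5%), and the gene with the upstream peak was Rps6ka3, a kinase and not a ribosomal protein. Clustered histones had 1 of 67 (Hist1h2bb, in 17-copy sequence, downstream 8.96%) and protocadherins 1 of 69 (Pcdh17, downstream 1.45%). Olfactory receptors had 2 of 1110 (0.180%, Olfr54 and the 140-copy Olfr822, downstream 0%). No member was found at 355 vomeronasal receptor genes, 112 keratin genes, 78 mitochondrial ribosomal protein genes, 40 proteasome genes or 37 chemokine genes, counts of 0 that allow shares of up to 0.845%, 2.68%, 3.85%, 7.50% and 8.11% by a bound of 3 counts. The upper Wilson limits were 1.07%, 3.32%, 4.69%, 8.76% and 9.41%, so that the last 3 families cannot be set apart from the 4.27% of all genes. In the same order, the downstream shares were 0%, 8.93%, 6.41%, 10.0% and 2.70%. Among the 2 families under 20 genes, 1 of 19 Sox genes had an upstream peak (5.26%, downstream 31.6%). Intraflagellar transport genes had 0 of 14 (downstream 0%), which allows up to 21.4% by the bound of 3 counts and 21.5% by the Wilson limit.

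**Figure D5:**
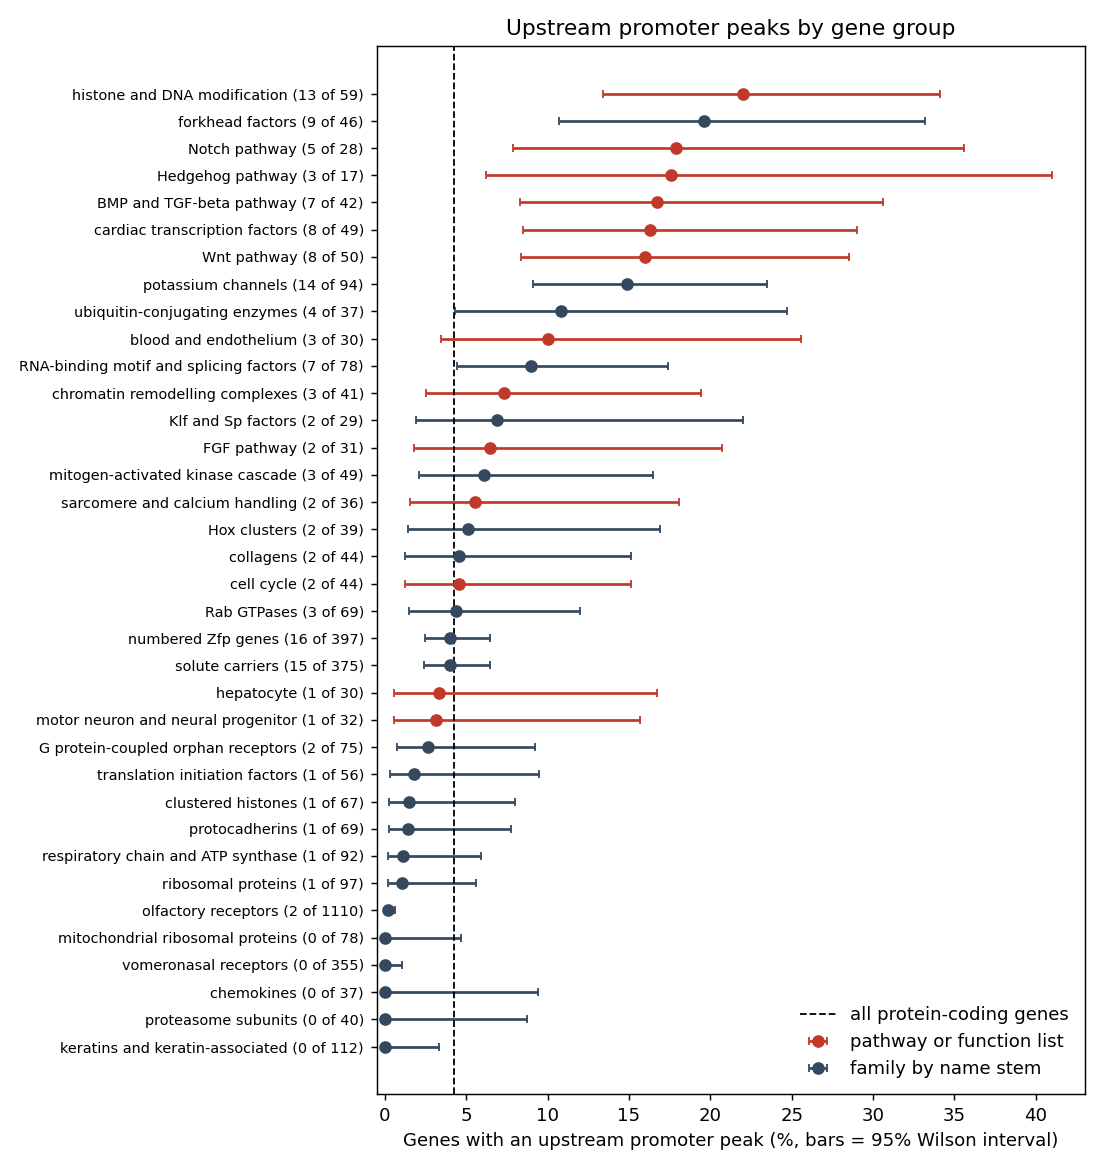
Share of protein-coding genes with an upstream promoter peak (x axis, percent, bars are 95% Wilson intervals) in 13 lists by function and 23 families by name stem, with the number of genes beside each name. The dashed line is the 4.27% of all protein-coding genes, and the histone and DNA modification list stands highest at 22.0%.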

How the data were processed

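The deposited list was made by the authors as follows, per the labels and the study's methods. Reads were mapped to mm9 with bowtie2, PCR duplicates removed with Picard 1.136, peaks called with MACS14, ENCODE blacklisted regions dropped, regions common to both ChIP replicates kept with bedtools 2.15, and each peak assigned to its closest TSS with HOMER. Positions and distances are in bp, without counts or signal.

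The 14165 lines held 14082 distinct peaks. Members were peaks with a distance from -1000 to -1. The 13 lists, 25 name-stem families and 11 motifs, and the members themselves, were chosen with earlier results of these data known. Named genes were up to 6 per list by width (all for the heart list), the 10 widest peaks, genes with 2 peaks and the 5 highest and lowest families. Gene names given to complete a list, the chromosome X members, the divergent pairs and the last pair of printed sequences were added after their values were seen. Sequences were to come from the heart, chromatin and second heart field signalling lists, and the 5 pathway lists served as the last. Symbols were matched to RefSeq (1002 by symbol, 25 by accession, 2 by synonym), whose coordinates were not used. Sequence came from NCBIM37, the sequence of mm9 (0 peaks ran past a chromosome end). The 8 two-sided Fisher's exact tests, Benjamini-Hochberg adjusted over the 8, Wilson intervals and copy counts were tested on simulated data (Python 3.11.15, scipy 1.17.1, pandas 2.3.3, numpy 2.4.6, numba 0.67.0). Intervals cover sampling within the list only. Alternatives varied the window, width, copy number, island criteria, annotation, chromosomes, repeated lines, neighbouring peaks and gene class. A few named genes are not reported here. The input and the replicates were not analysed here on their own.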

Additional observations from a re-analysis of the deposited data

Results flagged for a closer look

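A total of 20 upstream promoter peaks (1.94% of 1029, interval 1.26 to 2.98%) stood on more than 1 line of the deposited list, as 21 extra identical lines. The repeats were set aside when the list was reduced to distinct peaks and entered no comparison above. The repeated peaks were wide, with a median of 2162 bp against 1102 bp for the other members, and included 6 of the 10 widest, at Brd2, E030030I06Rik, Midn, 5930403L14Rik, Irf2bp2 and Gnas. Keeping the repeated lines changed no call. How the repeats arose was not tested.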

How the results depend on the processing

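Of 397 values computed under other settings for 48 results, none of the tests changed direction and 4 lost significance. For 367 values a test stayed on its side of the threshold, a share or median within its interval, or a count within 1.5 times. The counts were 1430 peaks and 1360 genes (6.21%) when measured to the closest GENCODE start, within 1.5 times those reported. The odds ratio for width against downstream peaks was 1.03 (Fisher's exact test, adjusted p = 0.782) with a 2000-bp window. That for chromosome X against far peaks was 0.506 (0.403) among single-copy peaks. That for multi-copy sequence against downstream peaks was 1.23 (0.384) with a 500-bp window and 1.56 (0.0553) for protein-coding genes alone. Measured to the closest GENCODE start, divergent neighbours were found for 13.8%. When a gene counted as upstream-bound through any of its GENCODE starts, 2403 genes were, or 11.0% of all in place of 4.27%. Against that share, the lists that left their intervals had 34.0% (Wnt), 22.6% (FGF), 35.7% (Notch), 24.4% (remodelling) and 45.8% (histone and DNA modification). Among lists that stayed within theirs were heart factors (24.5%), BMP and TGF-beta (26.2%), Hedgehog (29.4%) and cell cycle (13.6%). The sarcomere and calcium handling list stayed at 5.56%, which is above 4.27% but below 11.0%. The families that left their intervals had 8.25% (ribosomal stem), 6.52% (respiratory chain), 8.82% (Zfp), 10.9% (solute carriers), 10.4% (clustered histones), 13.0% (Rab), 27.0% (ubiquitin-conjugating), 12.5% (proteasome), 14.3% (translation initiation), 6.41% (mitochondrial ribosomal), 24.5% (mitogen-activated kinases) and 23.1% (RNA-binding). The Notch share was 7.14% without peaks that had another within 1000 bp. Shares fell to 0 for motor neuron genes and protocadherins with a 500-bp window, for the ribosomal stem on autosomes, for clustered histones and protocadherins among peaks of at least 500 bp, and for clustered histones among single-copy peaks. No paired analysis was possible because the list combines both replicates, and for that reason neither replicate could be left out. Depth and peak height are unknown here, so nothing can be said of weak binding.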

Other observations

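MicroRNA genes made up 28 of the 1029 assignments (2.72%, interval 1.89 to 3.90%), against 21 of 4387 (0.479%, 0.313 to 0.731%) among the downstream peaks, 302 of 8666 (3.48%) among the far peaks and 351 of 14082 (2.49%) overall. The share among members was thus near that of all peaks. For a microRNA the annotated start is that of the hairpin and not that of the primary transcript. These peaks were spread over the window, with 6 within 100 bp, 8 over 100 to 300 bp away, 6 over 300 to 500 bp away and 8 beyond. Well-studied ones were Mirlet7i (1452 bp, -173), Mir203 (1142 bp, -135), Mir34b (1052 bp, -10), Mir200c (792 bp, -362), Mir148a (1155 bp, -996) and Mir206 (551 bp, -487), chosen after their values were seen. Their main mature products are printed from RefSeq (GRCm38.p6), with bases 2 to 8, the seed that pairs with targets, in capitals. No seed is shared between them.
let-7i-5p: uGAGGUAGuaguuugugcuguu
miR-203-3p: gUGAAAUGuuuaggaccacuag
miR-34b-5p: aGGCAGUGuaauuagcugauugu
miR-200c-3p: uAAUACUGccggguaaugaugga
miR-148a-3p: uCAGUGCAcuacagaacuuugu
miR-206-3p: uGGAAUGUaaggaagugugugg

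Long non-coding RNA genes held 47 members (4.57%, 3.45 to 6.02%), against 1.73% of the downstream, 13.4% of the far and 9.11% of all peaks. Protein-coding genes held 945 (91.8%), against 97.4%, 80.9% and 86.8%. Transcribed pseudogenes held 7 (0.680%), against 0.365%, 1.77% and 1.25%. The assigned TSS was within 50 bp of a GENCODE start for 81.5% of the members and for 89.4% of the downstream peaks.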
